A study of Mus musculus with 9 samples.

Results

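The tubulin, stathmin and microtubule-associated protein genes were examined in 9 single cells from the hypothalamic paraventricular nucleus of C57Bl6/N mice aged 21 to 28 days. The 52 genes were chosen by their symbols from the 23528 symbols of the deposited table. No value entered this rule, although earlier results of these data were known. They comprise 18 tubulins, 5 tubulin-folding cofactors, 5 stathmins, 11 structural microtubule-associated proteins, 3 end-binding proteins, 4 genes of the doublecortin family, 2 genes of MAP1 light chain 3 and 4 neurofilament genes. The choice by symbol also took in pseudogenes such as Tubb2a-ps2. Every cell is labelled secretagogin+, and no treatment or mutation is named. Secretagogin is a calcium-binding protein found in some neuroendocrine neurons. The tissue was dissociated with papain, and cells were captured in chambers of a Fluidigm C1 chip. The labels tie no cell to an animal, so that the 9 cells count as a single sample and no p-value was computed.

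Microtubules are hollow polymers of alpha- and beta-tubulin dimers, nucleated by gamma-tubulin, and they form the tracks along which neurons carry secretory granules into axons and dendrites. Mammals have several genes for each tubulin, called isotypes, whose products differ mainly in an acidic tail at the carboxyl end. Tubulin-folding cofactors assemble the dimer, stathmins bind it and favour disassembly, structural microtubule-associated proteins stabilise the polymer, and end-binding proteins track its growing end. Neurofilaments are intermediate filaments of axons and are not microtubule proteins, but they lie beside them.

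The depth of the cells set what could be seen. Gene molecules ranged from 1021 in cell 1 and 3393 in cell 6 to 26466 in cell 5, with a median of 9573, and spike-in molecules ranged from 1962 to 2184 in cells 1 to 8 and were 614 in cell 9, the only cell on another lane. A count of 0 allowed up to 29.4 molecules per 10000 in cell 1, 8.84 in cell 6 and 1.13 in cell 5. Of the cells, 4 held markers of another cell type. Cell 4 had 2507 molecules of blood markers (4 of 7 genes) and 149 of endothelial markers (10 of 10), cell 7 had 62 of endothelial markers (9 of 10), cell 5 had 406 of oligodendrocyte markers (10 of 10), and cell 8 had 114 of ependymal markers (9 of the 9 in the table) and 29 of astrocyte markers (4 of 10). Blood markers took 20.85% of the molecules of cell 4, and its levels, shares and limits given here use the total that includes them. Cells 1, 2, 3, 6 and 9 had 0 to 3 molecules of each of these lists. None of the microglial markers had a molecule in any cell. The 15 neuron markers, none of them among the 52 genes, summed to 130 to 345 molecules in cells 2, 3, 5 and 9. Cell 7 had 84 of these, cell 8 had 50, cell 6 had 18, and cells 1 and 4 had 12 each. Of Scgn, the secretagogin gene that gives the label, cell 3 held 11 molecules, cell 8 held 3 and cells 2, 5 and 9 held 1 each. Cells 1, 4, 6 and 7 held no Scgn molecule, so the deposited counts do not show the labelled gene in these 4. How far the other cell types contributed to the values given here was not tested.

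The isotypes of tubulin can be told apart by sequence only in part, which bears on every isotype value given here. The last 60 coding bases of the main beta-tubulins are shown, from GENCODE M21 on GRCm38/mm10, because they encode the tail in which isotypes differ. The sequences run 5′ to 3′ on the coding strand and end with the stop codon. Capitals mark bases that differ from Tubb2a in a pairwise alignment, or that have no counterpart in it.

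Tubb2a (chr13:34074468-34074527, minus strand): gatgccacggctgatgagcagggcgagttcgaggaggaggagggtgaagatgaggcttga
Tubb2b (chr13:34127471-34127530, minus strand): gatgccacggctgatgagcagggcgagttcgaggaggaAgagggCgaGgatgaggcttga
Tubb3 (chr8:123421623-123421682, plus strand): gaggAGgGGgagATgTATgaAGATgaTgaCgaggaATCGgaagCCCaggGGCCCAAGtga
Tubb4b (chr2:25222308-25222367, minus strand): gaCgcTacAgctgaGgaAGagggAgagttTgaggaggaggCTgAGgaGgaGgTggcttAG
Tubb5 (chr17:35834982-35835041, minus strand): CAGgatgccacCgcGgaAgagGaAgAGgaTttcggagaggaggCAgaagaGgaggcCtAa

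Tubb2a and Tubb2b differed at 3 of these 60 bases and were 96.5% identical over the coding sequence. Tubb3, the beta-tubulin used as a marker of neurons, differed from Tubb2a at 30 bases, counting bases without a counterpart in Tubb2a. It lacked 6 of the Tubb2a bases and was 83.4% identical over the coding sequence. Of all 50-base windows in annotated transcripts, 72.9% of those of Tuba1a, 66.7% of those of Tuba1b and 49.6% of those of Tubb2a also occurred in another gene, mostly Tuba1c for the alpha-tubulins and Tubb2b for Tubb2a. The share was 37.8% for Tubb4b, mostly with the pseudogene Tubb4b-ps1, 18.9% for Stmn1, mostly with the predicted gene Gm11223, and 0% for Tubb3 and Stmn3. With windows of 25 bases the share was 78.4% for Tuba1a, 59.3% for Tubb2a, 52.95% for Tubb4b and 6.96% for Tubb3, mostly with Tubb6. The sources used here do not say how reads that match several genes were assigned, nor which stretch of a transcript was sequenced after template switching and fragmentation. The split between Tuba1a and Tuba1b, the split between Tubb2a and Tubb2b, and the zeros of Tuba1c are therefore uncertain. Levels per kb of exon have the same limit, since a molecule counted from 1 end of a transcript does not scale with its length.

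The sequence check above was chosen after seeing the data. The 52 genes held 1121 of the 91370 gene molecules, or 1.23%. Their share of a cell's molecules had a median of 1.26% and ran from 0.392% in cell 1 to 1.82% in cell 5. Alpha-tubulins gave 28.2% of the 1121 molecules, beta-tubulins 23.5%, stathmins 19.2% and structural microtubule-associated proteins 15.3%. A molecule was found in at least 5 cells for 19 of the 52 genes (36.5%), against 7.00% of all symbols. It was found in at least 1 cell for 43 (82.7%), against 41.4% of all symbols, and 9 genes had none. Detection follows abundance, and the 52 genes had a median of 6.5 molecules against 0 for all symbols. When all cells were thinned to the 1021 molecules of cell 1, the expected number in at least 5 cells was 3.06.

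The order of the cells by this share left a gap. Cell 5 had 1.82% (exact 95% interval 1.66 to 1.99), cell 9 had 1.53% (1.27 to 1.83), cell 3 had 1.33%, cell 6 had 1.27%, cell 2 had 1.26% and cell 8 had 0.934% (0.776 to 1.11). Cell 7 followed with 0.461% (0.318 to 0.647) and cell 4 with 0.433% (0.323 to 0.567). The intervals of neighbours in this order overlapped at every step except between cells 8 and 7. Endothelial markers gave 149 molecules in cell 4 and 62 in cell 7, against 5 in cell 5, 3 in cell 6 and 0 in the rest, and their part in the low shares was not tested. Cell 1 had 0.392% from 4 molecules (0.107 to 1.00), which does not place it. Intervals cover counting error only. Against 1000 spike-in molecules, the 52 genes had 221 molecules in cell 5 and 195 in cell 9, against 15.9 to 66.8 in cells 2, 3, 4, 6, 7 and 8 and 1.97 in cell 1. Cell 9 had 614 spike-in molecules and lay on another lane, and the part of this in its value was not tested.

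**Figure D1:**
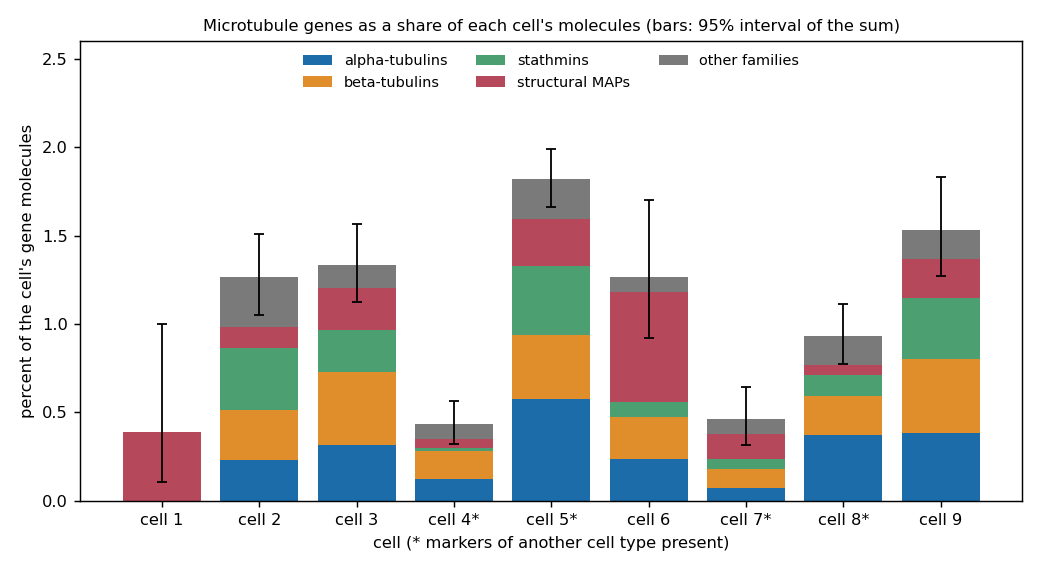
Percent of each cell's gene molecules taken by the microtubule genes, stacked by family; black lines are exact 95% intervals of the sum. Cell 5 reached 1.82%, cells 4 and 7 stayed below 0.5% and cell 1 held structural microtubule-associated protein genes only, from 4 molecules.

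Among the alpha-tubulins, Tuba1a was the most abundant of all 52 genes, both in molecules (219) and as mean molecules per 10000 per kb of exon (9.60). Tuba1a is the main alpha-tubulin of developing neurons. Cell 5 held 100 Tuba1a molecules, cell 8 held 44, cell 9 held 23, cell 3 held 22, cell 2 held 15, cell 4 held 9, cell 7 held 4, cell 6 held 2 and cell 1 held none. Per 10000 molecules, Tuba1a stood at 37.8 in cell 5 (interval 30.7 to 46.0), 33.4 in cell 8 (24.3 to 44.8) and 29.4 in cell 9 (18.6 to 44.1). It stood at 7.49 in cell 4 (3.42 to 14.2) and 5.59 in cell 7 (1.52 to 14.3). Cells 5, 8 and 9 thus lay above cells 4 and 7 by more than counting error. Cell 6 stood at 5.89 (0.714 to 21.3), and its interval overlapped that of cell 9. Both cells 4 and 7 carried endothelial markers, cell 5 oligodendrocyte markers and cell 8 ependymal markers, and their part in these levels was not tested.

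Tuba1b, a neighbour of Tuba1a on chromosome 15 that is expressed in most tissues, had 75 molecules. Cell 5 held 36 of them, cell 3 held 11, cell 2 held 7, cells 4 and 6 held 6 each, cell 9 held 5, cell 8 held 3, cell 7 held 1 and cell 1 held none. Tuba1a had more molecules than any other alpha-tubulin in 7 cells, and Tuba1b led in cell 6 alone, with 6 molecules against 2. Per kb of exon the leaders were the same. In cell 8, 89.8% of the 49 alpha-tubulin molecules were Tuba1a (interval 77.8 to 96.6), against 65.4% of 153 in cell 5 (57.3 to 72.9) and 64.7% of 34 in cell 3 (46.5 to 80.3). The intervals of cells 8 and 5 did not overlap, and those of cells 8 and 3 did.

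Tuba4a, which encodes an alpha-tubulin without the terminal tyrosine of most other isotypes and is expressed in brain and muscle, had 22 molecules. Cell 5 held 17, cells 8 and 9 held 2 each and cell 3 held 1. Cell 5, which also held 406 molecules of oligodendrocyte markers and 345 of neuron markers, thus had 77.3% of all Tuba4a molecules, at 6.42 per 10000 (interval 3.74 to 10.3), against 2.56 in cell 9 (0.310 to 9.23), which overlapped. The 0 of cell 4 allowed up to 2.50 per 10000, below the lower end in cell 5. This limit uses a total of which 20.85% were blood markers, and a limit without them was not computed. The 0 of cell 2 allowed up to 3.13, but its exact interval reached 3.85 and overlapped that of cell 5. The zeros of cells 1, 6 and 7 allowed up to 29.4, 8.84 and 4.19, which cannot show a difference from cell 5. Tuba1c, Tuba3a, Tuba3b and Tuba8 had no molecule in any cell. This allows up to 0.328 per 10000 over all cells for each, provided that reads shared with other genes were counted to them. Of their 50-base windows, 52.7% for Tuba1c, 33.6% for Tuba3a, 29.55% for Tuba3b and 0.181% for Tuba8 also occurred in another gene.

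Among the beta-tubulins, Tubb2a led with 119 molecules. Cell 5 held 45, cell 3 held 27, cell 2 held 12, cell 4 held 9, cell 9 held 8, cell 8 held 7, cell 6 held 6, cell 7 held 5 and cell 1 held none. Its level was 25.2 per 10000 in cell 3 (interval 16.6 to 36.6) and 5.31 in cell 8 (2.14 to 10.95), which did not overlap. Tubb2a led the beta-tubulins in 6 cells, cells 2 to 7, also per kb of exon. Tubb2b, its near copy, had 2 molecules in all.

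Tubb3 had 50 molecules in 6 cells. Cell 5 held 21, cell 9 held 12, cell 2 held 7, cell 3 held 6, and cells 4 and 8 held 2 each, while cells 1, 6 and 7 held none. Cell 9 had the highest level, 15.3 per 10000 (interval 7.92 to 26.8), and there Tubb3 led the beta-tubulins with 36.4% of 33 molecules (interval 20.4 to 54.9). Tubb2a followed with 24.2% (11.1 to 42.3), so that the 2 isotypes were not told apart beyond counting error. In cells 4 and 8 Tubb3 stood at 1.66 and 1.52 per 10000, and the neuron markers took 0.0998% and 0.380% of molecules, the lowest shares of the 9 cells. Cell 7 held no Tubb3, with a limit of 4.19 per 10000, although its neuron markers took 1.17%. Of those 84 marker molecules, 56 came from the long non-coding RNA Snhg11.

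Cell 8 was the cell in which Tubb4b led the beta-tubulins. Tubb4b, an isotype found in cilia and in most tissues, had 17 molecules there. Cell 5 held 15, cell 4 held 6, cell 9 held 4, cell 2 held 2, cell 7 held 1 and cells 1, 3 and 6 held none. Its level in cell 8 was 12.9 per 10000 (interval 7.52 to 20.7), against 5.67 in cell 5 (3.17 to 9.35), whose intervals overlapped. Tubb4b made up 58.6% of 29 beta-tubulin molecules in cell 8 (38.9 to 76.5), 15.8% of 95 in cell 5 (9.12 to 24.7), 12.1% of 33 in cell 9 (3.40 to 28.2), 7.41% of 27 in cell 2 (0.910 to 24.3) and 0% of 44 in cell 3 (up to 8.04). The interval of cell 8 lay above those of cells 2, 3, 5 and 9, and overlapped those of cell 4, at 31.6% of 19 (12.6 to 56.6), and cell 7, at 12.5% of 8 (0.316 to 52.65). Cell 6 held none among 8 (up to 36.9%), which also lay below the interval of cell 8, though from few molecules. Cell 8 is the cell in which all 9 ependymal markers of the table were detected, led by Tmem212 with 25 molecules and Ccdc153 with 24. Their part in the Tubb4b level was not tested.

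Tubb5, a beta-tubulin expressed in most tissues, had 43 molecules. Cell 5 held 12, cell 3 held 10, cell 9 held 7, cell 2 held 6, cell 8 held 3, cells 4 and 6 held 2 each, cell 7 held 1 and cell 1 held none. Its level ran from 1.40 per 10000 in cell 7 to 9.32 in cell 3 among these cells. Tubb4a, which is enriched in neurons and oligodendrocytes, had 4 molecules, 2 of them in cell 5. Tubb1, Tubb6 and the pseudogene Tubb2a-ps2 had none. The gamma-tubulins Tubg1 and Tubg2, which nucleate microtubules, had 3 molecules and 1.

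**Figure D2:**
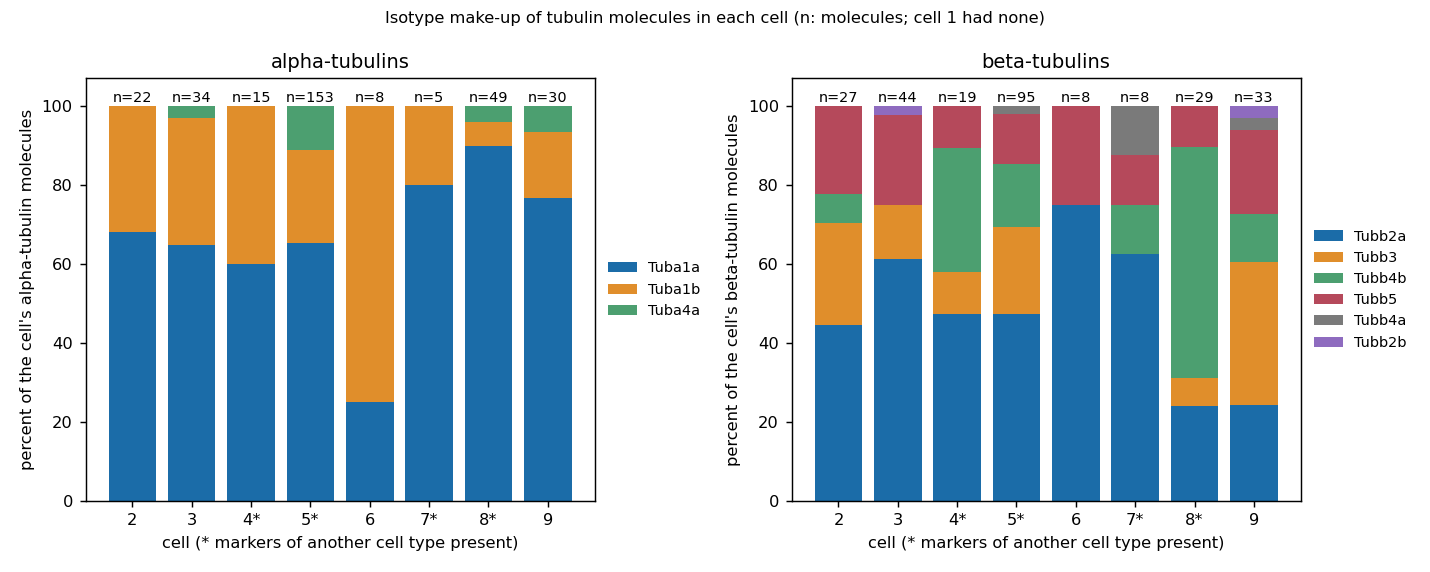
Isotype make-up of the alpha-tubulin (left) and beta-tubulin (right) molecules in each cell, in percent, with the number of molecules above each bar. Tubb4b filled 58.6% of the beta-tubulin bar of cell 8, and Tuba4a was largest in cell 5, at 11.1% of its alpha-tubulin molecules.

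The balance of alpha- and beta-tubulin molecules was also compared between cells. Alpha-tubulins made up 62.8% of the 78 molecules of both families in cell 8 (interval 51.1 to 73.5) and 61.7% of 248 in cell 5 (55.3 to 67.8). They made up 38.5% to 50% in cells 2, 3, 4, 6, 7 and 9. The interval of cell 5 lay just above that of cell 3 (43.6% of 78, interval 32.4 to 55.3), and the other intervals overlapped.

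Cell 1 held no tubulin molecule of any kind. Its 0 allows up to 0.294% of molecules, and its exact interval reached 0.361%. Cell 5 had 0.945% tubulin molecules (lower end of the interval 0.832), cell 9 had 0.818% (0.630), cell 3 had 0.727% (0.575), cell 8 had 0.592% (0.468) and cell 2 had 0.522% (0.388). Both the limit and the exact upper end of cell 1 lay below these lower ends. Cell 6 had 0.472%, cell 4 had 0.283% and cell 7 had 0.182%, with lower ends below the limit of cell 1. Snhg11 gave 11 of the 12 neuron-marker molecules of cell 1, and mitochondrial genes took 19.9% of molecules.

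Of the 5 tubulin-folding cofactors, Tbca, a chaperone of beta-tubulin, was the only gene in at least 5 cells. Cells 5 and 8 held 11 Tbca molecules each, cell 2 held 7, cell 3 held 5, cells 4 and 9 held 2 each, and cells 1, 6 and 7 held none. Per 10000 molecules Tbca stood at 8.35 in cell 8 (interval 4.17 to 14.9) and 4.16 in cell 5 (2.08 to 7.44), which overlapped. Tbcb, which acts on alpha-tubulin, had 10 molecules, 8 of them in cell 5, and Tbce, Tbcd and Tbcc had 7, 5 and 2.

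The stathmins had 215 molecules. Their share of a cell's molecules had a median of 0.121%, which was 0.242% without cells 4, 5, 7 and 8 and the same without cells 1 and 6. Stmn3, a stathmin of neurons, had 108 molecules in 5 cells. Cell 5 held 61, cell 2 held 15, cell 9 held 14, cell 3 held 10 and cell 8 held 8, and cells 1, 4, 6 and 7 held none. Cell 5 stood at 23.05 per 10000 (interval 17.6 to 29.6), cell 9 at 17.9 (9.78 to 30.0), cell 2 at 15.7 (8.77 to 25.8), cell 3 at 9.32 (4.47 to 17.1) and cell 8 at 6.07 (2.62 to 11.96). The 0 of cell 4 allowed up to 2.50 and that of cell 7 up to 4.19, below the lower ends of cells 2, 5 and 9. The 0 of cell 6 allowed up to 8.84 and that of cell 1 up to 29.4, so the depth cannot show there whether Stmn3 was lower.

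Stmn2, also called SCG10, is a growth-associated stathmin of neurons. It had 59 molecules. Cell 5 held 25, cell 2 held 13, cell 3 held 8, cell 9 held 5, cell 8 held 3, cells 4 and 7 held 2 each, cell 6 held 1 and cell 1 held none. Its level was highest in cell 2, at 13.6 per 10000 (interval 7.23 to 23.2), and was 1.66 in cell 4 (0.201 to 6.01). Stmn1, a stathmin expressed also outside neurons, had 33 molecules. Cell 5 held 8, cell 3 held 7, cells 8 and 9 held 5 each, cell 2 held 4, cells 6 and 7 held 2 each and cells 1 and 4 held none. Its level was 2.79 per 10000 in cell 7 and 3.02 to 6.52 in the other 6 cells that held it. Cell 5, the highest for Stmn3, had 3.02 of Stmn1. The intervals of Stmn1 overlapped in all cells that held it. Stmn4, found in neurons and oligodendrocytes, had 14 molecules in 4 cells, 8 of them in cell 5.

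The stathmins were also set against tubulin, the protein they bind. Stathmins made up 40.5% of the 84 stathmin and tubulin molecules in cell 2 (interval 29.9 to 51.8), 29.7% of 91 in cell 9 (20.6 to 40.2), 29.2% of 353 in cell 5 (24.5 to 34.2) and 25% of 104 in cell 3 (17.0 to 34.5). They made up 17.0% of 94 in cell 8 (10.1 to 26.2) and 5.56% of 36 in cell 4 (0.680 to 18.7). The interval of cell 4 lay below those of cells 2, 5 and 9, and that of cell 8 below that of cell 2. This measure does not depend on the total of a cell. Cells 6 and 7 had 19 and 17 such molecules, too few to place them.

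**Figure D3:**
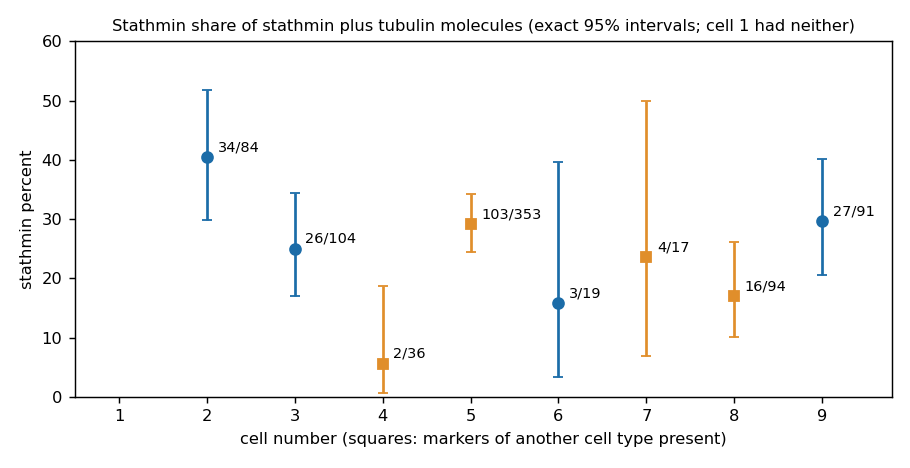
Stathmin molecules as a percent of stathmin plus tubulin molecules in each cell, with exact 95% intervals and the counts beside each point. Cell 2 was highest at 40.5% and cell 4, with 2 of 36 molecules, lowest at 5.56%.

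Among the structural microtubule-associated proteins, Map1b, which encodes a microtubule binder of growing axons, had 60 molecules and stood highest in cell 6. Cell 5 held 28 molecules, cell 6 held 12, cell 3 held 7, cell 9 held 6, cell 7 held 4, cells 2, 4 and 8 held 1 each and cell 1 held none. Per 10000 molecules it stood at 35.4 in cell 6 (interval 18.3 to 61.8), against 10.6 in cell 5 (7.03 to 15.3) and 7.67 in cell 9 (2.81 to 16.7). The lower end in cell 6 lay above the upper end of every other cell except cell 1, whose 0 allowed up to 29.4. Map1b gave 12 of the 21 molecules of structural microtubule-associated protein genes in cell 6, whose share was 0.619% (0.384 to 0.945). Cell 6 held 3393 gene molecules, of which 34.2% were mitochondrial, the highest share of the 9 cells. It held no Stmn3 and no Tubb3, with limits of 8.84 per 10000. With 14253 exon bases Map1b is the longest of the 52 genes, and per kb of exon it ranked 14.

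Mapt, which encodes tau, a binder of axonal microtubules, had 31 molecules in 6 cells. Cell 5 held 16, cell 3 held 8, cells 2, 6 and 9 held 2 each and cell 7 held 1. Cells 4 and 8, at 12024 and 13176 gene molecules, held none, with limits of 2.50 and 2.28 per 10000. These limits lay below the lower ends in cell 3 (7.46, interval 3.22 to 14.7) and cell 5 (6.05, interval 3.46 to 9.82). For cell 4 the total includes blood markers (20.85% of molecules). Without them its limit would be higher, and whether it would still lie apart was not computed. Map2, the binder of dendrites and cell bodies, had 20 molecules in 6 cells, with 7 in cell 5, 5 in cell 9, 3 each in cells 3 and 8 and 1 each in cells 4 and 6. Its highest level was 6.39 per 10000 in cell 9 (interval 2.07 to 14.9), and its intervals overlapped in all cells that held it. At least 1 of Mapt, Map2, Map1b, Map6 and Dcx was found in 8 cells, all but cell 1. With at least 2 molecules of 1 of these genes required, this held in 7 cells, and with 3 in 6 cells.

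Map1a, a relative of Map1b in mature neurons, had 13 molecules in 6 cells, and Map7d2, of the MAP7 family that recruits kinesin-1, had 18 in 7 cells. Map1s had 7 molecules, Map4, the binder of non-neuronal cells, had 7, and Map6, which makes microtubules resistant to cold, had 5. Map7d1 had 8 molecules in 5 cells, and 3 of these lay in cell 1, at 29.4 per 10000 (interval 6.06 to 85.9). With 1 molecule of Map7 these were the only molecules of the 52 genes in cell 1. Map10 had none.

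**Figure D4:**
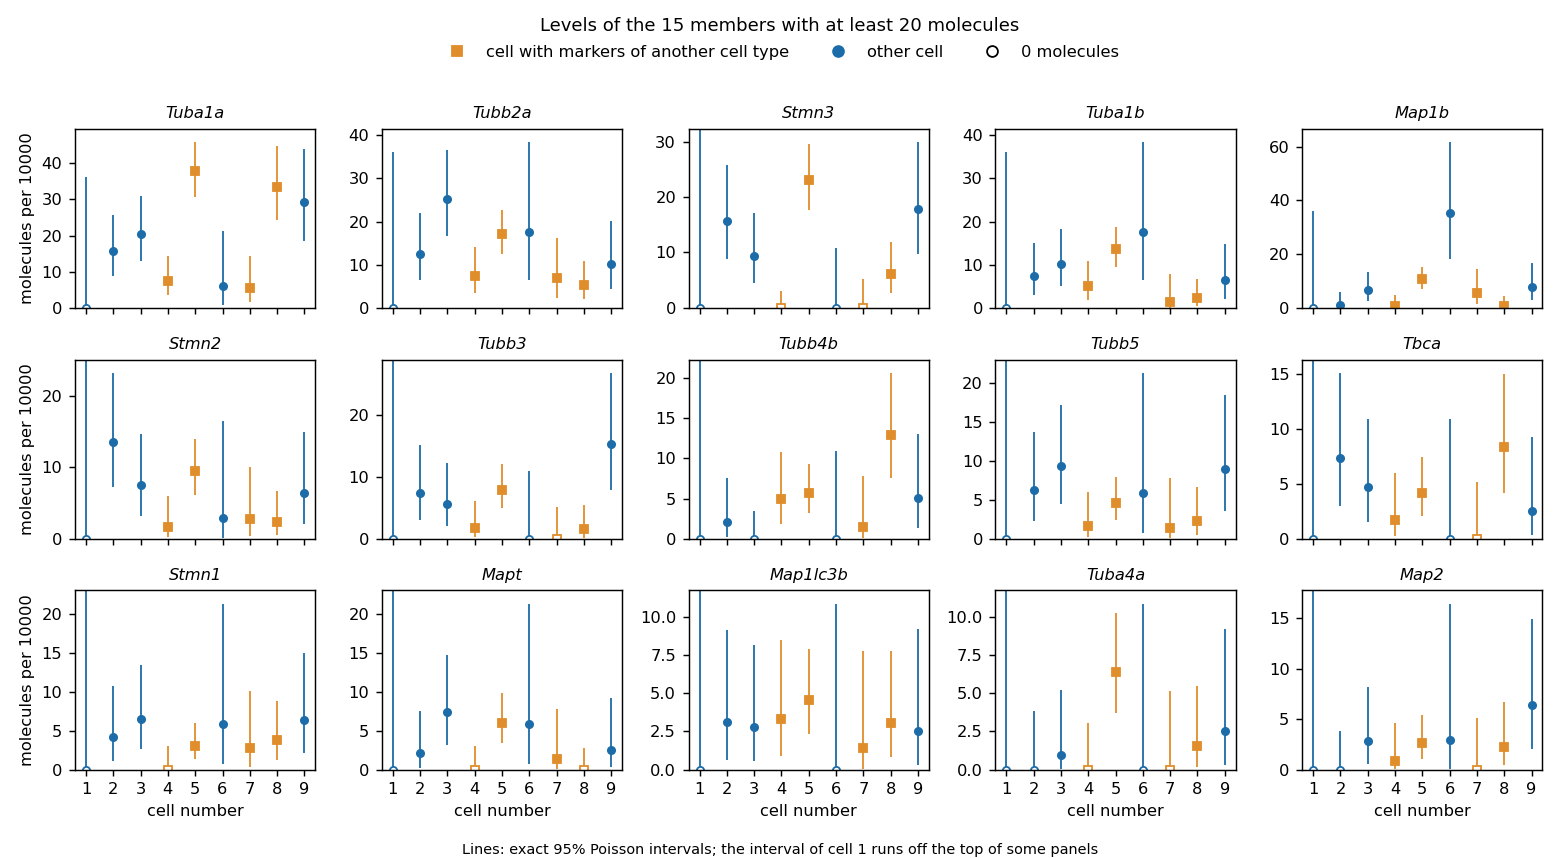
Molecules per 10000 gene molecules in each cell for the 15 genes with at least 20 molecules, with exact 95% Poisson intervals; open symbols are counts of 0 and squares are cells with markers of another cell type. Map1b was highest in cell 6 (35.4), Tubb4b in cell 8 (12.9) and Tuba4a in cell 5 (6.42).

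Of the end-binding proteins, Mapre1 (EB1) had 14 molecules in 7 cells with at most 3 in any, Mapre2 (EB2) had 10 in 4 cells and Mapre3 (EB3), the form enriched in neurons, had 2. In the doublecortin family, Dcx, which marks newborn and migrating neurons, had no molecule in any cell, which allows up to 0.328 per 10000 over all cells. Its relative Dclk1 had 18 molecules in 4 cells. Dclk2 had 2 and Dclk3 had 1.

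Map1lc3b and Map1lc3a encode light chains of MAP1 proteins that are known above all as markers of autophagosomes. Map1lc3b had 29 molecules. Cell 5 held 12, cells 4 and 8 held 4 each, cells 2 and 3 held 3 each, cell 9 held 2, cell 7 held 1 and cells 1 and 6 held none. Its level ran from 1.40 per 10000 in cell 7 to 4.53 in cell 5, with overlapping intervals. Map1lc3a had 6 molecules in 5 cells. The neurofilament genes had 7 molecules in all. Nefl and Nefh had 2 molecules each, Nefm had 1 and Ina, which encodes alpha-internexin, had 2. Cell 5 held 3 molecules of the family and no other cell more than 1. Cells 1, 6, 8 and 9 held none, at depths that allow up to 29.4, 8.84, 2.28 and 3.83 per 10000.

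Detection in at least 8 cells was reached by 6 of the 52 genes, against 0.723% of all symbols: Tuba1a, Tuba1b, Tubb2a, Tubb5, Stmn2 and Map1b, each found in cells 2 to 9. Map1b rested on 1 molecule in 3 of them, and with at least 2 molecules required it was found in 5 cells. Cell 1, which lacked all 6, was the shallowest. In cells 1, 2, 3, 6 and 9, 20 of the 52 genes were found in at least 3 cells, against 5.99% of all symbols.

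The other genes of the microtubule system, listed by function, numbered 106 in the table. At least 5 cells held 22 of these (20.75%, against 7.00% of all symbols), fewer cells held 58, and 26 had no molecule, while 41.4% of all symbols had a molecule in at least 1 cell. Of 15 genes of prefoldin, the chaperonin that folds tubulin and cofactor partners, 11 were in at least 5 cells and 4 in 1 to 4, led by Cct8 with 45 molecules, Cct5 with 39 and Pfdn5 with 32. Of 18 genes of growing ends and linkers, 5 were found in at least 5 cells and 11 in fewer, and Dst, which encodes a linker of cytoskeletal filaments, had 27 molecules and was found in all 9 cells. Of 21 genes of nucleation and minus ends, 2 were in at least 5 cells (Camsap2 with 15 molecules and Camsap1 with 12), 11 were found in fewer cells, and 8 had no molecule. None of the 8 severing genes was in at least 5 cells, where Spast and Fign had 7 molecules each, and none of the 18 tubulin-modifying genes was, where the acetyltransferase gene Atat1 had 8. At 7.00% of all symbols, lists of this size would hold few such genes, so these zeros say nothing particular to them. Of 14 other binders, 3 were found in at least 5 cells and 7 in fewer. Tppp3 led them with 53 molecules in 4 cells, 18 of them in cell 5. Of 13 kinase genes and their regulators, 2 were in at least 5 cells, and Mapk10 had 19 molecules.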

How the data were processed

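The deposited file gives whole-number counts, which the authors call molecules, for 9 cells over 24378 gene rows and 92 rows of spike-ins. The submitters' processing notes name mm10 and Bowtie; how duplicate reads were collapsed, how reads matching several genes were counted and the strand setting are not given in the sources used here. Columns were assigned by cell number, and 0 were left unassigned. None of the 52 rows used carried a locus suffix, and all 52 symbols were found in GENCODE M21 (GRCm38/mm10), the source of positions, exon lengths and sequences.

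Levels are molecules per 10000 gene molecules of a cell, without spike-ins, and shares are percent of them. Exact Poisson intervals (counts) and Clopper-Pearson intervals (shares) at 95% cover counting error only. For the level of a gene or family at 0 the limit is 3 molecules over the total. This lies below the upper end of the exact interval. Detection means at least 1 molecule. Genes with at least 20 molecules in all were given cell by cell, and others by total, with the cell that held most of them where the text names it. Levels of different genes were ranked per kb of exon. Detection after thinning is the hypergeometric expectation, checked on simulated data. Doublets were not called in 9 cells, and marker lists were summed instead. Genes, lists and tests were chosen with earlier results of these data known. Values were computed in Python 3.11.15 with scipy 1.17.1, pandas 2.3.3 and numpy 2.4.6, and drawn with matplotlib 3.10.9. Some items are not reported here.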

Additional observations from a re-analysis of the deposited data

Results flagged for a closer look

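Of 26 measures looked at in the 9 cells (15 gene levels, 10 family shares and the share of all 52 genes), 4 had a cell whose gap to its nearest neighbour was a large part of the whole range, above Dixon's 95% critical value. Chance gives this in about 1 in 20 measures of equally precise values, which these are not, since depth ranged from 1021 to 26466 molecules and many counts were 0. The criterion therefore serves here only to pick values, and no rate of chance applies. Map1b stood at 35.4 molecules per 10000 in cell 6, against 10.6 in cell 5, the next cell. Tubb4b stood at 12.9 in cell 8, against 5.67 in cell 5. Tuba4a stood at 6.42 in cell 5, against 2.56 in cell 9. Map2 stood at 6.39 in cell 9, against 2.95 in cell 6, where the values rest on 5 molecules and 1 molecule. Cells 5 and 8 carried markers of oligodendrocytes and of ependymal cells, and cell 6 had the highest mitochondrial share. Their part in the 4 levels was not tested.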

How the results depend on the processing

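Detection depended on depth and on the number of molecules required. The 19 genes found in at least 5 cells were 9 when 3 molecules were required, 11.9 in expectation when cells 2 to 9 were thinned to 3393 molecules, and 3.06 when all were thinned to 1021. At 1021 molecules Tubb3 was expected in 2.69 cells in place of 6, and a neuronal microtubule-associated protein in 4.97 in place of 8. Without cells 4, 5, 7 and 8, 0 genes were in at least 5 cells, since only 5 cells were left and cell 1 held just Map7 and Map7d1. There Tuba1a led the alpha-tubulins in 3 cells, Tubb3 was found in 3 and a neuronal microtubule-associated protein in 4. These counts fall by construction as cells are left out. The other 82 of 91 alternatives for the main results kept counts within 1.5 times and medians within 1 SD over cells. They include leaving out each cell in turn. Many of these could not have moved out of range. Leaving out 1 cell lowers a count of cells by at most 1, and summing loci changed nothing, since no row used had a locus suffix. The stathmin share had an SD of 0.155, above its median of 0.121, so no fall could exceed it. Its median was 0.242 without cells 4, 5, 7 and 8, and the same without cells 1 and 6, which counted as within range. For the cell counts and leads of single genes, 205 of 237 alternatives stayed within 1.5 times. Many of these also left out 1 cell or summed loci and could not have moved further. With 3 molecules required, Map1b, Stmn2 and Tubb5 were each found in 5 cells in place of 8, Mapt in 2 in place of 6 and Tuba4a in 1 in place of 4. The lead of Tubb2a among the beta-tubulins was examined under alternatives chosen after seeing the data. It held in 6 cells per kb of exon and in 3 of the 5 cells without other markers. No paired analysis was possible because there is only 1 group.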
